A study of Homo sapiens with 9 samples.

Results

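Genes for histones, high mobility group (HMG) proteins, histone chaperones and chromatin regulators were examined in HaCaT cells, an immortalized human keratinocyte line, after exposure to an extremely low frequency electromagnetic field (ELF-EMF). Members were all probes whose platform gene symbol belonged to the histone, HMGA, HMGB, HMGN, DEK, NAP1L, HDAC, RBBP, CBX, SMARC, CHD, BRD or polycomb repressive complex families, which gave 121 probes of 96 genes out of 30968 probes and 15240 named genes. They comprised 46 probes of 35 histone genes, 11 probes of 7 HMG genes, 8 probes of 6 genes for histone chaperones and the chromatin protein DEK, and 56 probes of 48 genes for remodellers and modifiers. Exposed cells received a 50 Hz field of 1 mT for 1 h, and the non-exposed cells (sham in the labels) stood in an identical incubator without the field. Both had been synchronized by serum starvation and released by serum before the experiment. RNA of exposed and non-exposed cells was compared on 9 two-colour arrays, 3 for each of 3 biological samples (A, B and C), of which 2 carried the exposed RNA in Cy5 (the Cy5 arrays) and 1 was a dye swap. Cells for the experiments were seeded from one flask after synchronization, and whether each of A, B and C had a flask of its own is not stated. The p-values therefore speak of these samples only. They rest on a spread shared across probes, wholly or in part, and not on each gene's own spread alone.

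In the nucleus DNA is wound around octamers of the core histones, and linker histones and HMG proteins bind this fibre and alter its packing. Most core and linker histones are encoded in clusters whose transcripts are made during DNA replication. Variants such as H2A.Z and macroH2A come from genes outside these clusters that are transcribed through the cell cycle. Chaperones carry histones to and from DNA, ATP-dependent remodellers of the SWI/SNF and CHD families move nucleosomes, deacetylases remove acetyl groups from histones, and HP1 and polycomb proteins read or write marks linked to gene silencing. In keratinocytes these systems are known for their part in the balance between proliferation and differentiation.

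Every value is a deposited log2 ratio, turned where needed so that it reads exposed over non-exposed. Within a biological sample, the mean of the Cy5 arrays and the dye swap were given equal weight, which yields its dye-balanced value. Between 1164 and 7250 of all probes had a value on an array, and the values themselves carry no intensity, so the level of a transcript is unknown and the small number of arrays limits the precision. Array 2 of sample C stood apart. As deposited it correlated with the 3 dye swaps (r from 0.36 to 0.42 across probes, which are not independent) and at -0.19 to 0.10 with the other 5 arrays of its own labelled orientation, while the other pairs of that orientation lay between 0.060 and 0.48. Whether its dyes were exchanged cannot be settled from the sources. Its label was kept, and results are also given without it and with it taken as a second dye swap of sample C, its sign turned. Counts of arrays and differences between repeated arrays follow the labels. Of the probes for keratinocyte markers, 13 of 14 had a value on at least 1 array, against 3 of 17 probes for markers of melanocytes, fibroblasts, immune and endothelial cells.

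Histone genes were the chromatin group with the smallest share of probes with a value, and this concerned the clustered genes. A value was present on at least 1 array for 59 of the 121 member probes (48.8%), against 40.6% of all probes with a gene symbol. The share was 37.0% for histones, 63.6% for HMG genes, 62.5% for chaperones and DEK, and 53.6% for remodellers and modifiers. Among histones, 10 of 34 probes of clustered genes had a value (29.4%), and 7 of 12 probes of variant genes (58.3%). Without any value were 47 genes, of which 21 were histone genes, 3 HMG genes, 2 chaperone genes and 21 remodellers or modifiers. Transcripts of clustered histone genes mostly end in a stem-loop in place of a poly(A) tail, and the amplification kit used here starts from poly(A); its part in these counts was not tested. Of the SMARC probes 9 of 14 had a value and of the CHD probes 8 of 13, compared with 5 of 12 for HDAC, 2 of 7 for CBX and 2 of 5 for BRD. The 2 probes of the single HMGA gene on the array had none.

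**Figure D1:**
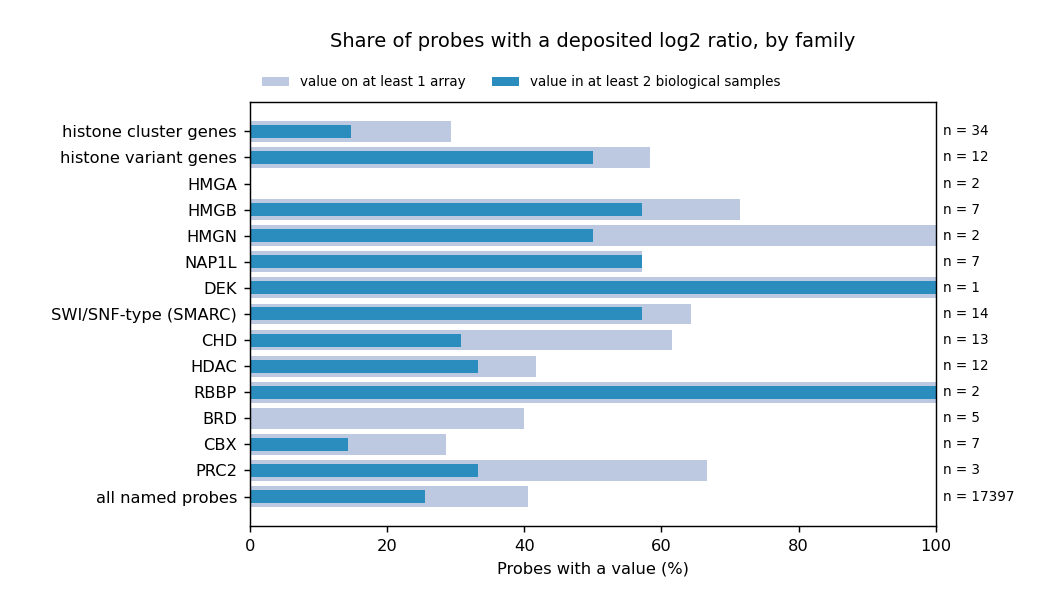
Share of probes with a deposited log2 ratio (%, x axis) for each chromatin gene family and for all probes with a gene symbol, with the number of probes at the right; pale bars count a value on at least 1 array and dark bars a value in at least 2 biological samples. Clustered histone genes (29.4%) lie below histone variant genes (58.3%), and HMGA has no bar because neither of its probes had a value.

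A value in at least 2 biological samples was present for 41 member probes of 33 genes, and both dye orientations of all 3 samples were measured for 7 of them. These 7 were DEK, the histone genes H2AFX (H2A.X, now H2AX) and HIST2H4B (a histone H4 gene, now H4C15), CBX3, and the SWI/SNF subunits SMARCC2, SMARCD2 and SMARCE1, and no HMG gene was among them. With limma and Benjamini-Hochberg adjustment over the 570 probes measured in this way, 0 of the 7 passed the threshold of 0.05 in either direction. Over all 570 probes 3.86% were called lower and 0% were called higher. At an unadjusted p under 0.05 stood 1 of the 7, SMARCC2, against 20.4% of all tested probes. The weakest probe that was called had a log2 ratio of 0.48 in size, whereas the largest among the 7 was 0.35. In the wider fit over the 5688 probes with at least 2 samples, 0 of the 41 members were called, with 0% of all probes called, and 3.8% of all probes had an unadjusted p under 0.05.

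**Figure D2:**
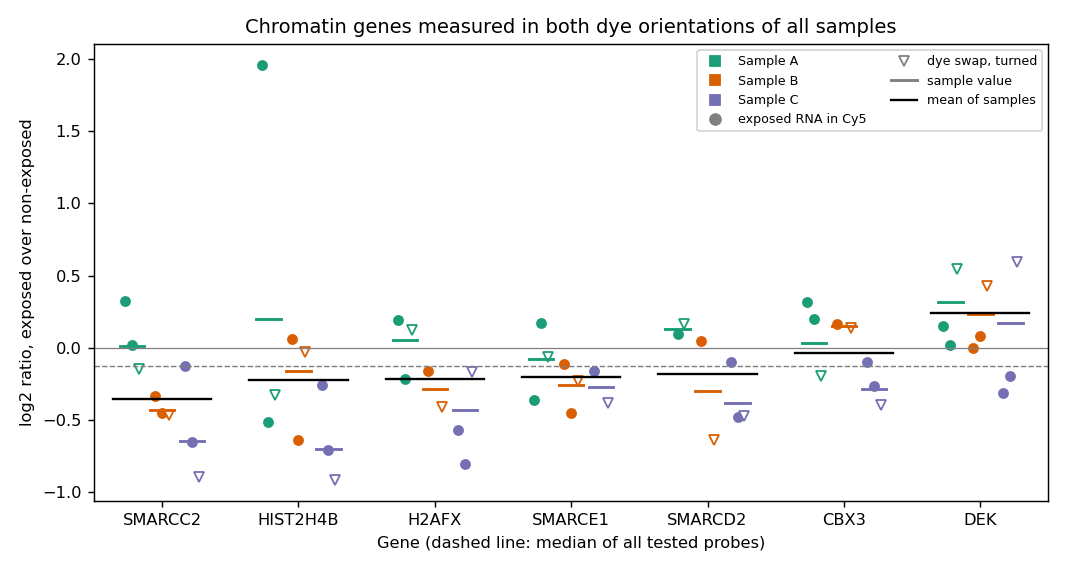
Log2 ratio of exposed over non-exposed cells (y axis) for the 7 chromatin genes measured in both dye orientations of all 3 samples: filled circles are Cy5 arrays, open triangles are turned dye swaps, short lines the dye-balanced value of a sample, black lines the mean of the 3 samples, and the dashed line the median of all 570 tested probes (-0.12). SMARCC2 has the lowest mean (-0.35) and DEK the highest (0.24), and the dye swaps of DEK all lie above its other arrays.

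The 3 tested SWI/SNF subunits had mean log2 ratios below 0, with values near 0 in sample A and lower ones in samples B and C. SMARCC2, a scaffold subunit of the complex, had dye-balanced log2 ratios of 0.013 in sample A, -0.43 in sample B and -0.64 in sample C. Its mean was -0.35 ± 0.34 (SD, n = 3), which is 1.28-fold lower (adjusted p = 0.16). The 95% confidence interval of -0.65 to -0.052 comes from limma's standard error of 0.15, common to all tested probes. The standard error from the 3 samples of SMARCC2 itself was larger, at 0.19. The values fell below 0 on 7 of its 9 arrays and lay at 0.32 and 0.020 on both Cy5 arrays of sample A. In such bulk RNA a lower ratio from fewer cells with the transcript and from less transcript per cell cannot be told apart. SMARCD2, an accessory subunit, was at 0.13, -0.30 and -0.38 in samples A, B and C, with a mean of -0.18 ± 0.28 (adjusted p = 0.54). SMARCE1, the subunit with an HMG-box DNA-binding domain, was at -0.079, -0.25 and -0.27, with a mean of -0.20 ± 0.11 (adjusted p = 0.48), and lay below 0 in every sample. Relative to the median of all tested probes the 3 means were -0.23, -0.058 and -0.079. The median of all tested probes was itself 0.034 in sample A, -0.26 in sample B and -0.14 in sample C, so that B and C lay lower than A over all probes as well. Without array 2 of sample C, which held no SMARCE1 value, SMARCC2 had a mean of -0.31 and SMARCD2 of -0.15. With that array as a dye swap they were at -0.18 and -0.071. Leaving out 1 biological sample gave means from -0.54 (without A) to -0.21 (without C) for SMARCC2 and from -0.34 to -0.082 for SMARCD2, in the same order.

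Other SWI/SNF subunits were measured in fewer arrays and did not share one direction. SMARCA2, a catalytic ATPase also called BRM, was at 0.023, -0.52 and -0.21 in samples A, B and C (mean -0.24 ± 0.27, adjusted p = 0.88). SMARCC1, the close relative of SMARCC2, was at 0.15, -0.038 and 0.13, and SMARCD1, the relative of SMARCD2, at 0.051, -0.14 and 0.31. SMARCB1, a core subunit, was at -0.36 in sample C and -0.0014 in sample A. The second SMARCE1 probe was at -0.16 in sample A and 0.82 in sample C, opposite in its mean (0.33) to the probe with all 3 samples. Of the 8 SMARC probes with at least 2 samples, 5 had a mean below 0 and 3 above, with a median of -0.18, where the median of all 5688 probes was -0.091.

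The histone probes with at least 2 samples had mean log2 ratios from -0.51 to 0.28, with wide spread between arrays. H2AFX, whose product is phosphorylated at DNA breaks, was at 0.058 in sample A, -0.29 in sample B and -0.43 in sample C. Its mean was -0.22 ± 0.25 (n = 3; 95% confidence interval -0.52 to 0.082, adjusted p = 0.42), and 6 of its 8 arrays were below 0. Without array 2 of sample C the mean was -0.20, and with that array as a dye swap it was -0.12. Without sample A it was -0.36 and without sample C -0.11. HIST2H4B was at 0.20, -0.16 and -0.70, with a mean of -0.22 ± 0.45 (adjusted p = 0.42), which was -0.047 with array 2 of sample C as a dye swap. Of its 9 arrays 7 were below 0, and array 1 of sample A stood at 1.96 while array 2 of the same sample and orientation stood at -0.51. The second HIST2H4B probe gave the same contrast, with 1.44 on array 1 and -0.63 on array 2 of sample A, and its mean was -0.018 ± 0.55. Most genes of histone H4 encode the same protein. The probe sequences were not available, so these probes may not tell one H4 gene from another.

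Among histone variants, the 2 probes of H2AFZ (H2A.Z, now H2AZ1), a variant found at promoters, differed in sign. The probe with values on 8 arrays had sample values of -0.0012, -0.20 and -0.22 (mean -0.14 ± 0.12, adjusted p = 0.89). The other had -0.26, -0.63 and 1.72 (mean 0.28 ± 1.27, adjusted p = 0.92). Its values in samples B and C rested on 1 array each, and no dye swap was measured for it. H2AFY (macroH2A1, now MACROH2A1), a variant enriched on silent chromatin, was at 0.63, -0.88 and 0.080 by one probe (mean -0.059 ± 0.76, adjusted p = 0.97). Its second probe was at -0.29 in sample A and 0.84 in sample C. H2AFY2, for macroH2A2, was at -0.21 in sample A and -0.28 in sample C. Of the clustered genes, HIST1H2BD was at -1.02 in sample A and -0.0058 in sample C, each on 1 array. HIST1H2BK was at -0.18 and -0.0029, and HIST3H2A at 0.036 and -0.21, in the same samples. None of these probes was called by the limma test, whose standard error is in part shared across probes. All 5 probes of clustered histone genes with at least 2 samples had a mean below 0, but 1 of them moved above 0 once each array was centred on its median. For the variants the count was 4 below and 2 above, and 3 of each after centring. Over all 5688 probes with at least 2 samples, 65.8% had a mean below 0 before centring. The 5 clustered probes include the 2 of HIST2H4B. HIST1H2BD, HIST1H2BK and HIST3H2A had no dye swap and rested on the same Cy5 arrays of samples A and C.

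HMG transcripts had means from -0.45 to 0.068, and HMGB1, the gene with the most probes, gave no single direction. HMGB1, a DNA-bending protein that also acts as a danger signal outside cells, had 3 probes with at least 2 samples and means of 0.018, -0.0042 and 0.068. By the first probe it was at 0.047, 0.13 and -0.12 in samples A, B and C (SD 0.13, adjusted p = 0.98). By the second it was at 0.24, -0.49 and 0.24 (SD 0.42, adjusted p = 1.00), and this probe read -0.22 in the mean of the Cy5 arrays and 0.56 in the mean of the dye swaps. The third probe was at 0.28 in sample A and -0.15 in sample C. HMGB2, the related protein of dividing cells, had the lowest mean at -0.45 ± 0.63 (adjusted p = 0.88), with -0.0011 in sample A and -0.89 in sample B, where it rested on the dye swap alone. HMGN3, which binds nucleosomes directly, was at -0.15 in sample A and -0.089 in sample B. After centring, the mean of the second HMGB1 probe was 0.084, above 0.

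**Figure D3:**
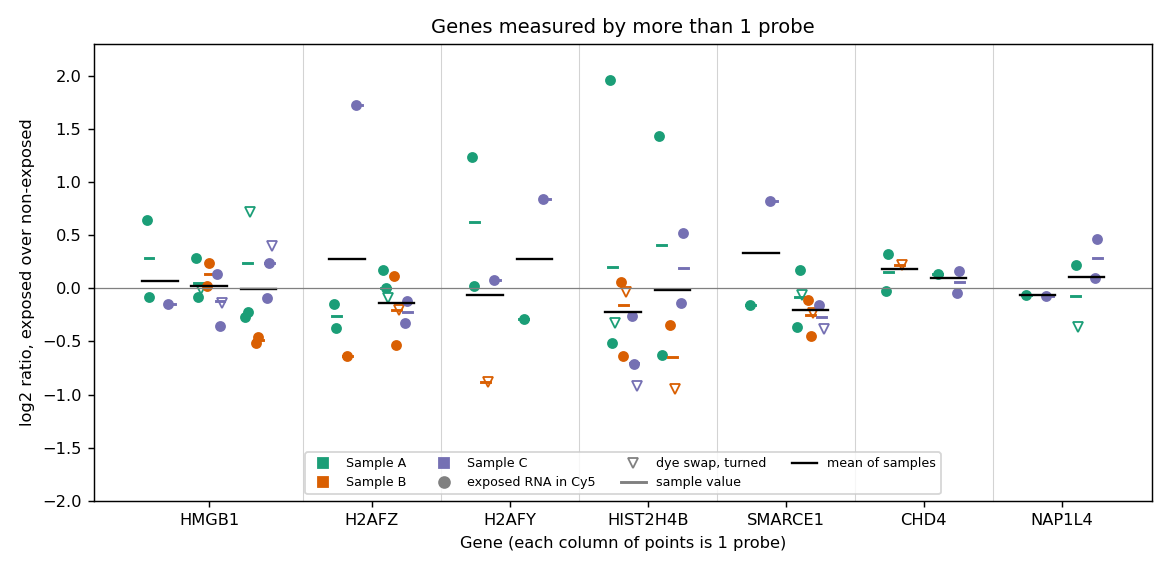
Log2 ratio of exposed over non-exposed cells (y axis) for the 7 chromatin genes with more than 1 probe measured in at least 2 samples, 1 column of points per probe; circles are Cy5 arrays, open triangles turned dye swaps, short lines sample values and black lines the mean of the samples. The probe means of 5 of the 7 genes lie on both sides of 0, and both HIST2H4B probes have their highest point on array 1 of sample A (1.96 and 1.44).

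DEK, a chromatin-bound protein with histone chaperone activity, was the single tested member with a mean above 0. Its dye-balanced log2 ratios were 0.32 in sample A, 0.23 in sample B and 0.17 in sample C, above 0 in all 3. The mean was 0.24 ± 0.073 (n = 3; 1.18-fold higher, 95% confidence interval -0.060 to 0.54, adjusted p = 0.39), which is 0.36 above the median of all tested probes and higher than 96.8% of them. The orientations differed. The dye swaps read 0.55, 0.43 and 0.60 for samples A, B and C, whereas the Cy5 arrays lay between -0.31 and 0.15. The means of the 2 orientations were 0.53 and -0.043, and these sets of arrays did not overlap. How many of the 570 probes separate in this way was not counted. Without array 2 of sample C the mean was 0.23, and 0.20 with that array as a dye swap. In a fit with a dye term over the 9 arrays, DEK had a dye effect of -0.28 on the log2 scale (adjusted p = 0.083), where 7.54% of the 570 probes had an adjusted p under 0.05 and 0 of the 7 members did. One sign in all 3 samples was seen for DEK and SMARCE1, which is 28.6% of the tested members, against 38.6% of all tested probes.

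The nucleosome assembly proteins of the NAP1L family, which carry H2A and H2B, were measured outside the strict filter. NAP1L1 was at 0.0063, -0.091 and -0.29 in samples A, B and C (mean -0.12 ± 0.15, adjusted p = 0.90). NAP1L4 had probe means of -0.066 and 0.11, each from samples A and C. NAP1L5 was at 0.0029 in sample A and 0.22 in sample B. No direction was shared within this family, with 2 means below 0 and 2 above.

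The silencing factors and deacetylases spread around 0. CBX3 (HP1 gamma), which binds methylated histone H3, was at 0.033, 0.15 and -0.29 in samples A, B and C (mean -0.035 ± 0.23, adjusted p = 0.94), and its mean was 0.058 after centring and 0.034 with array 2 of sample C as a dye swap. HDAC1 was at 0.26, -0.63 and -0.21 without any dye swap (mean -0.20 ± 0.45, adjusted p = 0.88), and its paralogue HDAC2 was at -0.18, 0.40 and 0.24 (mean 0.16 ± 0.30). The histone-binding partners of these deacetylases, RBBP4 and RBBP7, had means of -0.047 and 0.074. HDAC6, a mainly cytoplasmic deacetylase that acts on tubulin, was at -0.23 in sample B and -0.49 in sample C, and HDAC11 was at 0.27 in sample A and -0.094 in sample C. SUZ12, a subunit of polycomb repressive complex 2, was at 0.50, 0.16 and -0.16 (mean 0.17 ± 0.33, adjusted p = 0.89), and its mean was 0.0033 without sample A. The CHD remodellers had 4 probes with at least 2 samples and all 4 means above 0, also after centring. CHD4, the ATPase of the NuRD repressor complex, had means of 0.18 and 0.10 by its 2 probes, followed by CHD6 at 0.10 and CHD1 at 0.091. CHD1 and CHD6 were above 0 in sample A and below 0 in sample C, so that the sign of the mean was not shared by the samples. None of these values passed the limma test. No dye swap was measured for HDAC1, HDAC11, CHD1, CHD6 or the CHD4 probe with the mean of 0.10.

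Over the tested probes the median log2 ratio was -0.22 for histones (n = 2), -0.19 for remodellers and modifiers (n = 4) and 0.24 for DEK alone, with -0.20 for the 7 members together and -0.12 for all 570 probes. After centring of each array these were -0.12 for histones and -0.070 for remodellers and modifiers, with -0.019 for all tested probes. Leaving out sample A or C gave -0.39 or -0.047 for histones and -0.30 or -0.12 for remodellers and modifiers. The median of all tested probes was -0.20 without sample A and -0.11 without sample C. Below 0 were 6 of the 7 members and 75.3% of all tested probes. Over the probes with at least 2 samples the median was -0.094 for 11 histone probes, -0.0042 for 5 HMG probes, 0.11 for 5 chaperone and DEK probes and 0.073 for 20 remodeller and modifier probes, against -0.091 for all 5688. A dye swap was measured for 5, 4, 4 and 13 of these probes, in the same order, and the others rested on Cy5 arrays alone. Over all probes with both orientations the median was -0.037 on the Cy5 arrays and -0.24 on the swaps. What this mix adds to the group medians was not tested. Means below 0 were found for 9 of 11 histone probes, 3 of 5 HMG probes, 2 of 5 chaperone and DEK probes and 9 of 20 remodeller and modifier probes, and for 65.8% of all probes. After centring the medians of the 4 groups were -0.053, 0.084, 0.056 and 0.092, with -0.0068 for all probes. Without array 2 of sample C they were -0.13, -0.032, 0.014 and 0.014, with -0.095 for all probes, and again 0 of the 7 tested members were called. With that array as a dye swap they were -0.094, -0.085, -0.035 and 0.026, with -0.099 for all probes and 0 tested members called. The signs also turned elsewhere, but in medians over fewer probes. The remodeller and modifier median was -0.22 on the dye swaps (n = 8) and -0.12 without sample A (n = 13). The HMG median was 0.24 on the dye swaps (n = 2) and 0.068 without sample B (n = 3). The chaperone and DEK median was -0.011 on the Cy5 arrays (n = 4). Whether the setting or the loss of probes turned these signs was not tested. The differences between the groups were not tested, since probes of 1 array set are not replicates.

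**Figure D4:**
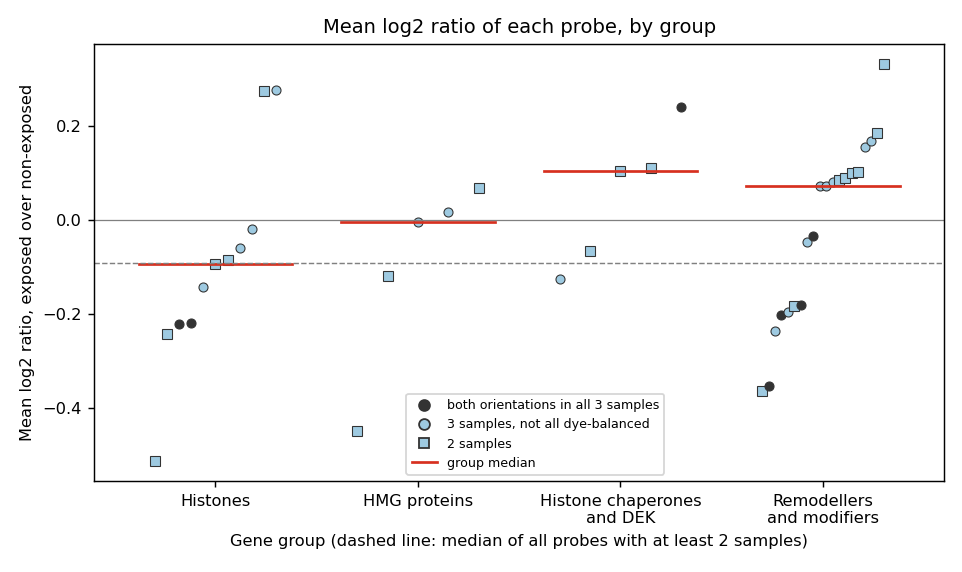
Mean log2 ratio of exposed over non-exposed cells (y axis) for each of the 41 chromatin probes with at least 2 biological samples, by gene group (x axis); black points were measured in both dye orientations of all 3 samples, blue circles in 3 samples and blue squares in 2 samples, red lines are group medians and the dashed line is the median of all 5688 probes (-0.091). The 4 groups overlap, and the histone median (-0.094) lies on the dashed line.

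The 2 dye orientations often differed in sign. Of the 26 member probes with both orientations, 12 had opposite signs in them (46.2%), compared with 49.2% of all probes with at least 2 samples and both orientations. The dye swap was the lower one in 17 of the 26 (65.4%), compared with 66.3% of all such probes. Opposite signs were found for 3 of 4 HMG probes, 3 of 4 chaperone and DEK probes, 2 of 5 histone probes and 4 of 13 remodeller and modifier probes. The medians of the 26 were 0.012 on the Cy5 arrays and -0.15 on the dye swaps, and those of all such probes were -0.037 and -0.24. These differences were not tested. H2AFY differed most, at 0.35 against -0.88, followed by the second HIST2H4B probe at 0.083 against -0.95. For both, the dye swap came from sample B alone, and H2AFY had Cy5 values from samples A and C alone, so that orientation and sample cannot be told apart there. SMARCE1 was among those that stayed close, at -0.18 and -0.22.

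**Figure D5:**
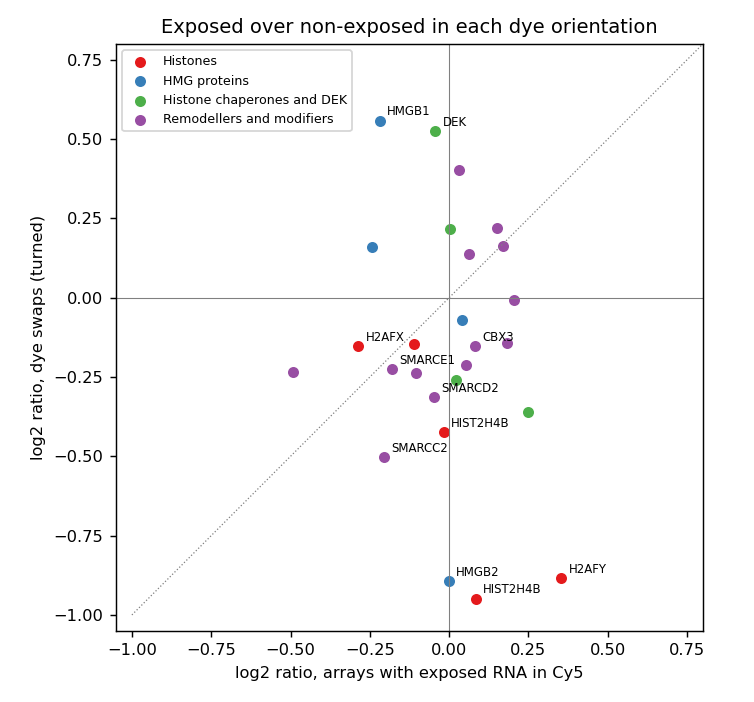
Mean log2 ratio of exposed over non-exposed cells on the Cy5 arrays (x axis) and on the turned dye swaps (y axis) for the 26 chromatin probes measured in both, coloured by gene group; the dotted line marks equal values, and names are given for tested members and for swap values beyond 0.5 in size. DEK and one HMGB1 probe lie above the dotted line with opposite signs (-0.043 and 0.53 for DEK), and 17 of the 26 points lie below it.

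Arrays of the same sample and orientation also differed from each other. The 2 Cy5 arrays had a median absolute difference of 0.28 over 20 member probes in sample A, 0.16 over 8 in sample B and 0.37 over 16 in sample C, and their signs were opposite for 9, 3 and 7 of these probes. The difference was largest for HIST2H4B in sample A, at 2.47.

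A further 18 member probes of 17 genes had a value on 1 array only, and allow no statement on the exposure. They ranged from -2.13 to 3.50, with a median of 0.015, and 3 were above 1 in size. These were CHD7, a remodeller of developmental enhancers, at 3.50 on array 2 of sample B, and HIST1H2BJ and HDAC5 at -2.13 and -2.10, both on the dye swap of sample B. A second CHD7 probe read 0.99 on array 2 of sample C. SMARCA4, the ATPase also called BRG1, was at 0.075, and EZH2, the methyltransferase of polycomb repressive complex 2, at 0.55, both on array 2 of sample A.

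Other genes of the same processes were taken from 9 lists (histone chaperones, acetyltransferases and methyltransferases, DNA methylation, cohesin and condensin, topoisomerases, histone mRNA processing, nuclear envelope binding, and partners in repressor and ATPase complexes). Of 156 listed genes 139 were on the array, and 5 were tested, of which 1 was lower (3.86% of all tested probes were), 0 were higher (0% of all) and 4 did not pass. BANF1, which bridges DNA and the nuclear lamina, was at -0.25, -0.82 and -0.59 in samples A, B and C (mean -0.55 ± 0.28, adjusted p = 0.013). It read -0.014 on the Cy5 arrays and -1.09 on the dye swaps, with a dye effect of 0.54 (adjusted p = 0.0058), and the call ended without sample B (-0.42, adjusted p = 0.34) or without sample C (-0.53, adjusted p = 0.11). RUVBL1, an ATPase of the INO80 and TIP60 complexes, had a mean of -0.32 ± 0.25 (adjusted p = 0.21). The cohesin subunit RAD21 had a mean of 0.16 ± 0.12 (adjusted p = 0.58), with all 3 samples above 0, SSRP1 of the FACT histone chaperone 0.030 ± 0.087 (adjusted p = 0.95), and the NuRD subunit MTA1 -0.11 ± 0.55 (adjusted p = 0.73).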

How the data were processed

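The authors scanned 2-colour Phalanx Human OneArray slides, normalized them with ScanArray Express and deposited 1 log2 ratio per probe and array. The scale was read from the values. With base 2, between 86.6% and 99.1% of the values of an array correspond to a ratio close to whole thousandths. Counted in thousandths, such a ratio lies 0.05 or less from a whole number. The normalization method and the step that left probes without a value are not given in the sources used here. Dye swaps were turned, and array medians were kept. The 3 dye-balanced values per probe entered limma 3.58.1 (R 4.3.3) in a model with 1 mean per probe and moderated two-sided tests, adjusted by Benjamini-Hochberg at a threshold of 0.05; all tested probes received one common standard error. For the dye effect, the single arrays were modelled with dye and exposure terms, and sample A, B or C was a random block (correlation within blocks -0.078). The method was run on simulated normal values with one spread for all probes and no missing values. The deposited arrays differ from this, so the simulation does not show how the method performs on them. Of the 96 member symbols, 61 are current in RefSeq (GRCh38.p14) and 35 were matched through synonyms. Of all probes, 17397 have 1 symbol, 0 several and 13571 none. Probes were not averaged within genes.

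Named genes were the tested members, up to 3 further members per group with the largest mean among those with all 3 samples, and tested genes of the lists that were called or had the smallest p. Others named were chosen after their values were seen. The members and lists were chosen with earlier results of these data known. Alternatives were each orientation alone, a plain mean of the 3 arrays, centring, other filters, 9 arrays as replicates, each probe's own spread, each sample left out and, chosen after seeing the data, array 2 of sample C left out or taken as a dye swap.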

Additional observations from a re-analysis of the deposited data

Results flagged for a closer look

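Of the 16 named member probes examined over their arrays, 1 had an array far from the others. HIST2H4B read 1.96 on array 1 of sample A, while its other 8 arrays lay between -0.92 and 0.062, and the gap made up 0.66 of the whole range. The second HIST2H4B probe read 1.44 on that array. The 9 arrays include technical repeats, and by chance alone the rule used for flagging marks about 1 of 20 groups.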

How the results depend on the processing

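No chromatin member was called under any alternative run, and of the other values most kept their direction. The 22 calls over all tested probes became 10 on the dye swaps alone, 11 with a plain mean and 14 with a value on all 9 arrays. They became 40 without array 2 of sample C, 48 with it as a dye swap and 3 to 10 without 1 biological sample. They became 0 over probes with at least 2 samples, with 9 arrays as replicates or with each probe's own spread. An unadjusted p under 0.05 was found by limma for 216 over probes with at least 2 samples and 95 with 9 arrays as replicates. With each probe's own spread it was found for 32, by an ordinary t-test. Centring changed the split from 22 lower and 0 higher to 13 and 4, and the Cy5 arrays alone gave 5 and 14. BANF1, the 1 call of the lists, was lost (0 calls) on the Cy5 arrays alone, with a plain mean, over probes with at least 2 samples, with 9 arrays as replicates and on its own spread, with 0 to 1 calls when 1 sample was left out. DEK was at -0.043 on the Cy5 arrays, 0.53 on the swaps, 0.15 with a plain mean or 9 arrays as replicates, and 0.35 after centring. CBX3 turned to 0.083 on the Cy5 arrays, 0.0027 with a plain mean, 0.058 after centring and 0.034 with array 2 of sample C as a dye swap. HMGB1 turned to -0.071 on the swaps by its first probe, and to 0.56 on the swaps and 0.084 after centring by its second. NAP1L1 turned to 0.021 on the Cy5 arrays, and H2AFY to 0.35 on them, 0.092 after centring and 0.11 with 9 arrays. Leaving out 1 sample gave -0.43 to 0.020 for HIST2H4B, -0.13 to 0.092 for CBX3, -0.038 to 0.089 and -0.12 to 0.24 for the HMGB1 probes, -0.45 to 0.73 for the H2AFZ probe with 4 arrays, -0.40 to 0.35 for H2AFY and -0.42 to 0.022 for HDAC1. Without turning, it gave -0.54 to -0.21 for SMARCC2, -0.36 to -0.11 for H2AFX, -0.34 to -0.082 for SMARCD2 and 0.0033 to 0.33 for SUZ12, and SMARCC2 was at -0.20 on the Cy5 arrays. The cause was not tested. Each array compared exposed with non-exposed RNA directly, so the ratios are paired as measured and no further block was fitted. No HMG median could be given for tested probes. Signal over background is unknown.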
